A study of Arabidopsis thaliana with 8 samples.

Results

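The evening-phased genes of the circadian clock were followed here as 10 genes: GI, ZTL, FKF1, ELF3, ELF4, LUX, BOA, TOC1, PRR5 and PRR3. They were chosen by their locus names, with earlier results of these data known, and are 10 of the 32232 loci in the table. Where a name had 2 rows, the row with the higher mean without RNase R was to be taken, but none of the 10 names had 2 rows, so no measured value decided a row. All 10 passed the filter of at least 1 FPKM (fragments scaled by transcript length and by the number of fragments in the library) in at least 2 libraries, which left 14351 loci for testing.

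The samples were inflorescences of Arabidopsis thaliana, either the wild type Col-0 or the mutant dbr1-2 in the Columbia background, grown at 22 °C in cycles of 16 h light and 8 h dark. Each genotype had 2 libraries without and 2 with RNase R, so that 4 groups of 2 shared ribosomal RNA depletion and a stranded kit. All sequencing tags but that of dbr1-2 replicate 1 with RNase R also mention mRNA removal. Whether the preparation of that library differed is not known, and what mRNA removal means for the levels given here was not tested. DBR1 encodes the enzyme that opens the lariat left by an excised intron. RNase R degrades linear RNA while lariat loops and circles resist it. The design therefore asks which RNAs differ between dbr1-2 and Col-0 and which survive digestion. The labels do not say whether libraries of one group are separate plants, so the p-values measure the spread between these libraries, which may be technical. For neither genotype do the sources used here give the hour of collection. A change in level and a shift in the timing of the daily rhythm therefore cannot be told apart.

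The clock of Arabidopsis is built from genes that repress each other in sequence through the day. The MYB-like factors CCA1 and LHY are made around dawn and repress evening genes through a short promoter sequence called the evening element. The related factor RVE8, also a protein of the day, activates genes through the same element. TOC1 and the other pseudo-response regulators (PRR proteins) in turn repress CCA1 and LHY, and ELF3, ELF4 and LUX form the evening complex, a repressor of the early night. GI, ZTL and FKF1 act on protein stability: ZTL and FKF1 are F-box proteins that sense blue light and bind GI, and their targets include TOC1, PRR5 and the CDF repressors of flowering.

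The upstream sequences are shown first because most of these genes held the evening element, through which the morning factors are known to act. The element was searched as AAATATCT on both strands in the 300 bases before each annotated gene start of the TAIR10.1 reference. It was found in 6 of the 10 genes (FKF1, ELF4, LUX, BOA, TOC1 and PRR5) and in 5.64% of 27443 protein-coding promoters of the same length. FKF1 held 3 copies. The 3 windows below belong to genes that were lower in dbr1-2 with RNase R; evening elements are in capitals, each window is written 5′ to 3′ on the strand of the gene, and AGATATTT is the element read on the other strand. They were read from RefSeq's TAIR10.1 at chr1:25508339-25508638, chr3:17182742-17183041 and chr5:24674663-24674962, all on the plus strand.
FKF1: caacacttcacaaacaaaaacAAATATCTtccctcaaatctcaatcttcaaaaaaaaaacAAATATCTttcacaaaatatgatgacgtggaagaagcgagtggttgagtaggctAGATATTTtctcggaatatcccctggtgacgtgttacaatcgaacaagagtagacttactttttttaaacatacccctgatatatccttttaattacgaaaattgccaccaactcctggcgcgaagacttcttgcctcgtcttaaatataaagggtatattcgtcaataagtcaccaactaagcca
LUX: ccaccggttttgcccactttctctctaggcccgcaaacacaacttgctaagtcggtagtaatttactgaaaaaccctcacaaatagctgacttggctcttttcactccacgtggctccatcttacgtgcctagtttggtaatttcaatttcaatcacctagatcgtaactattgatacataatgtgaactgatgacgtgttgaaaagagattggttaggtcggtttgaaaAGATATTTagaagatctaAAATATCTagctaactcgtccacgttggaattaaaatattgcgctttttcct
TOC1: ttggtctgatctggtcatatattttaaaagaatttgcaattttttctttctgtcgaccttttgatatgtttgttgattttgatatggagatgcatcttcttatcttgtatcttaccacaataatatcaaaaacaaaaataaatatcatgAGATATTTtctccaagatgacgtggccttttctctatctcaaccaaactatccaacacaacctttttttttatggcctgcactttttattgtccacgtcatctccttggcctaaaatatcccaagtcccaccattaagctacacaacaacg

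In LUX the 2 elements faced opposite ways, beginning 70 and 52 bases before the gene start, and in TOC1 the single element began at 151 bases. The copies of the other genes within 300 bases, and the nearest one of GI, are shown as sites of 28 bases, because the windows of PRR5 and BOA lie wholly or partly inside the locus listed in the table, and because GI held its elements farther out, beginning 808, 777 and 590 bases before its start.
GI, from 590 bases: gctcccctcaAAATATCTgtggacatat
ELF4, from 250 bases: actttacaatAAATATCTttagatattt
ELF4, from 240 bases: aaatatctttAGATATTTctacaataag
PRR5, from 292 bases: caattctactAGATATTTtttcaaatcc
PRR5, from 187 bases: gattttttctAGATATTTtcttttctcc
BOA, from 43 bases: tgcgggtaaaAGATATTTtagattatct

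The capitals again mark the element, and the sites of ELF4 overlap, so that one element follows the other in the opposite direction. In windows of 1000 bases the element was found in 7 of the 10 genes, now with GI, and in 15.3% of promoters. ELF3 and ZTL had no match to the element in either window, and PRR3 had only its shorter form AATATCT, which lies within the element and was found in 7 of the 10 genes and 11.8% of promoters at 300 bases. The motifs other than these were each found in 2 of the genes at 300 bases. The CCA1 binding site (AAAAATCT or AACAATCT) was in ELF3 and PRR5 and in 9.99% of promoters. The LUX binding site (GATTCG or GATACG) was in ELF3 and ELF4 and in 14.3%, and the G-box (CACGTG), a site of light-responsive factors, was in LUX and BOA and in 7.09%. With the start moved to the more upstream of the listed and the annotated start, PRR5 and BOA lost their matches and 4 of the 10 genes held the element, an alternative chosen after seeing the data. A match is a run of letters and not evidence of binding.

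**Figure D1:**
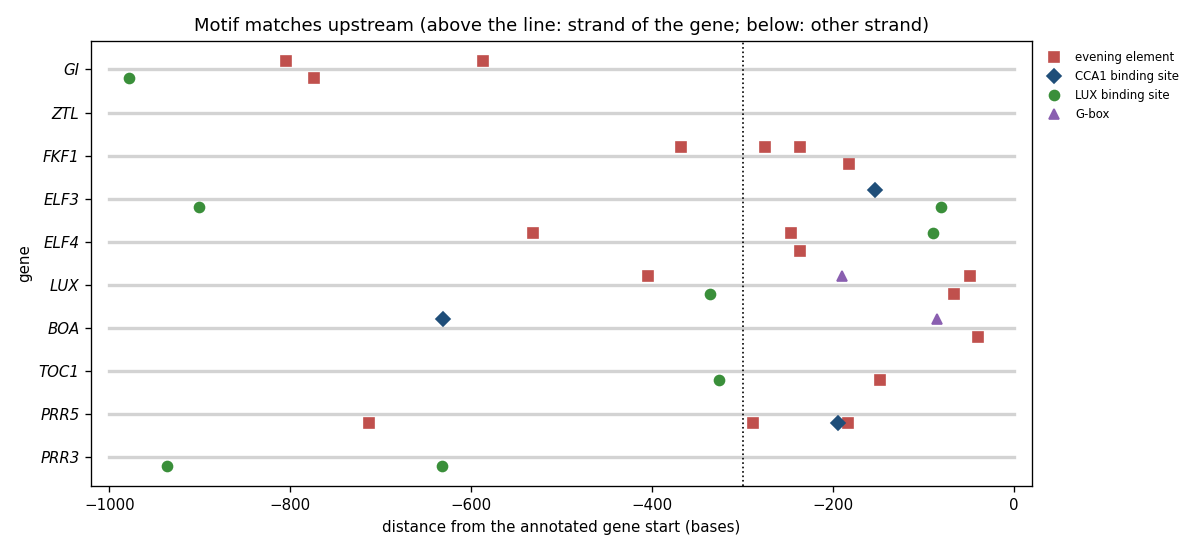
Motif matches in the 1000 bases before each gene start. The horizontal axis is the distance from the annotated start in bases, each row is a gene, symbols stand for motif matches and the dotted line marks 300 bases; red squares, the evening element, lie right of that line in FKF1, ELF4, LUX, BOA, TOC1 and PRR5 and left of it in GI.

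The genes lie on chromosomes 1, 2, 3 and 5. GI (AT1G22770, chromosome 1 from 8061751 to 8067790, plus strand) has 13 introns, FKF1 (AT1G68050, chromosome 1 from 25508639 to 25510907, plus) has 1, and ELF4 (AT2G40080, chromosome 2 from 16734294 to 16734953, minus) has none. LUX (AT3G46640, listed as PCL1 in the annotation, chromosome 3 from 17183042 to 17186959, plus) and BOA (AT5G59570, chromosome 5 from 24003888 to 24007844, plus) are close homologues. TOC1 (AT5G61380, chromosome 5 from 24674963 to 24678550, plus) and PRR5 (AT5G24470, chromosome 5 from 8356204 to 8358546, minus) have 5 introns each. ELF3 (AT2G25930) lies on chromosome 2 from 11058944 to 11063324, PRR3 (AT5G60100) on chromosome 5 from 24197971 to 24201415, and ZTL (AT5G57360) on chromosome 5 from 23241320 to 23244590.

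Some loci share ground with neighbours, which may bear on their values. The sources used here do not say whether strand was used in counting. The opposite-strand gene UGT76E1 overlaps BOA by 1896 bases, shares its listed interval and was between 0 and 0.789 FPKM. The overlap of the annotated LUX gene with AT3G46650 is 1507 bases, and AT3G46650 reached 0.0728 FPKM at most. The listed LUX interval, however, ends at 17185218, before AT3G46650 begins at 17185453. ELF3 shares its listed interval with ALPHA-VPE, which reached 0.0804 FPKM at most, and MAP70-1 overlaps FKF1 by 21 bases. The listed interval of PRR3, from 24195933 to 24201404, also spans AT5G60090 on the same strand, which has no value of its own here, so PRR3 values may hold fragments of it; this was not tested. LUX and BOA stand in matching surroundings: RDUF1 or its homologue RDUF2 lies upstream, and glycosyltransferase genes of the UGT76E group lie downstream of both.

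Depth limits the precision and differed between treatments. At a transcript of 1 kb, 1 FPKM was worth 74.7 to 90.0 fragments in the libraries without RNase R and 8.62 to 12.5 in those with it, as read from the steps between low values. DBR1 itself, below the filter, had 0.662 and 0.694 FPKM in the wild type against 0.339 and 0.430 in the mutant when no RNase R was used, and with it 0.202 and 0.188 against 0.265 and 0.260. The labels do not say how the allele alters the transcript. Of 8 floral genes, 7 were expressed in all libraries, from 1.06 FPKM (AP3) to 21.3 (PI), while LFY was at most 0.296 FPKM and listed at 0 in both Col-0 libraries with RNase R. Of 5 root genes, PHT1-1, PLT1 and WOX5 were at most 0.0501 FPKM, but SHR (2.24 to 3.40) and SCR (0.960 to 2.64) were expressed in all libraries. Tissue markers moved with genotype without RNase R. The summed FPKM of 6 green-tissue genes was 1553 to 1773 in Col-0 and 2148 to 2223 in dbr1-2 (4 of 6 higher, 1 lower), and that of 4 mature pollen genes was 16.4 to 17.6 and 5.05 to 5.63 (4 of 4 lower), against 14.2% of all loci higher and 3.32% lower. With 1 library left out, 4 green-tissue genes passed upward and 0 downward, and 1 to 3 pollen genes passed downward (3 and 2 without the first and second Col-0 library, 1 without either of dbr1-2). With RNase R the sums were 842 to 846 and 729 to 923 for green tissue, and 7.76 to 8.15 and 3.07 to 4.70 for pollen. By gene, 4 of the 6 green-tissue genes were still higher and 1 lower with RNase R, and 1 of the 4 pollen genes was lower. Of all loci, 29.9% were then higher and 7.09% lower. Their part in the clock genes' differences was not tested, and in these bulk samples fewer cells of a type and less RNA per cell cannot be told apart.

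Without RNase R, 4 of the 10 evening genes fell in dbr1-2 (FKF1, PRR5, GI and LUX) and 1 rose (ZTL). Of all loci tested, 3.32% fell and 14.2% rose. The threshold was an adjusted p of 0.05 in limma, with Benjamini-Hochberg adjustment over all 14351 loci. Fold changes were taken on log2(FPKM + 1), a scale that compresses the changes of weakly expressed genes. The median log2 fold change was −0.37 over the evening genes and 0.13 over all loci, and differences relative to that median are given for each gene that passed.

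GI, the scaffold that binds ZTL and FKF1, was at 9.95 and 10.6 FPKM in the Col-0 libraries and at 5.28 and 5.15 in those of dbr1-2. Both mutant libraries lay below both of the wild type. The ratio of means was 0.507 (log2 fold change −0.86, SE 0.10, limma adjusted p = 0.00151; −0.99 relative to all loci).

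FKF1, the F-box photoreceptor that removes CDF repressors, had the strongest fall of the 10 in log2 terms. Its FPKM was 7.79 and 7.45 in the wild type and 2.36 and 2.28 in the mutant, a ratio of means of 0.305. The groups were far apart compared with the spread within them, and the log2 fold change was −1.38 (SE 0.093, limma adjusted p = 0.000258; −1.51 relative to all loci). ZTL, its relative, went the other way, from 2.87 and 3.30 FPKM to 4.07 and 4.42 (ratio 1.38; log2 fold change 0.36, SE 0.096, limma adjusted p = 0.0380; 0.23 relative to all loci). ZTL kept its direction in all 15 alternatives but passed the threshold in 4 of them, with limma adjusted p from 0.0154 to 0.645. Leaving out either Col-0 or either dbr1-2 library ended the call (limma adjusted p of 0.260 and 0.1004 for the first and second wild-type libraries, 0.159 and 0.250 for those of the mutant). ZTL mRNA is known to vary little over the day while its protein is rhythmic.

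Of the transcripts of the evening complex, only that of LUX passed the threshold. LUX, its DNA-binding subunit, fell from 6.26 and 6.30 FPKM to 3.51 and 3.44 (ratio 0.553; log2 fold change −0.70, SE 0.10, limma adjusted p = 0.00368; −0.83 relative to all loci). ELF3, its scaffold, was 5.21 and 5.08 FPKM in Col-0 and 5.10 and 4.91 in dbr1-2, with overlapping groups. The log2 fold change of ELF3 was −0.03, with a 95% interval from −0.29 to 0.22. ELF4, the small subunit, was 2.01 and 1.12 FPKM in Col-0 and 1.25 and 0.679 in dbr1-2. Its groups overlapped, and replicate 1 was the higher library in both genotypes (ratio of means 0.616, log2 fold change −0.38, SE 0.19, limma adjusted p = 0.221). With a pseudocount of 0.1 the log2 fold change was −0.65 for ELF4 and −0.84 for LUX. ELF4 passed in 2 of its 15 alternatives. BOA, the homologue of LUX, was 1.41 and 1.57 FPKM in Col-0 and 1.92 and 1.69 in dbr1-2, and its log2 fold change of 0.17 had a 95% interval from −0.32 to 0.66.

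Of PRR5, TOC1 and PRR3, PRR5 was the one that fell. It was 8.52 and 8.40 FPKM in Col-0 and 2.97 and 3.06 in dbr1-2, a ratio of 0.357 (log2 fold change −1.24, SE 0.089, limma adjusted p = 0.000293; −1.37 relative to all loci). TOC1, which represses CCA1 and LHY, was 8.09 and 8.58 FPKM in Col-0 and 6.27 and 6.18 in dbr1-2. The groups of TOC1 did not overlap and the ratio was 0.747, but the test was not passed (log2 fold change −0.37, SE 0.11, limma adjusted p = 0.0572), though it was passed in 4 of its 16 alternatives. PRR3, which shields TOC1 from ZTL, was 1.58 and 1.33 FPKM in Col-0 and 1.41 and 1.3 in dbr1-2, overlapping groups with a log2 fold change of −0.06 and a 95% interval from −0.31 to 0.19.

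**Figure D2:**
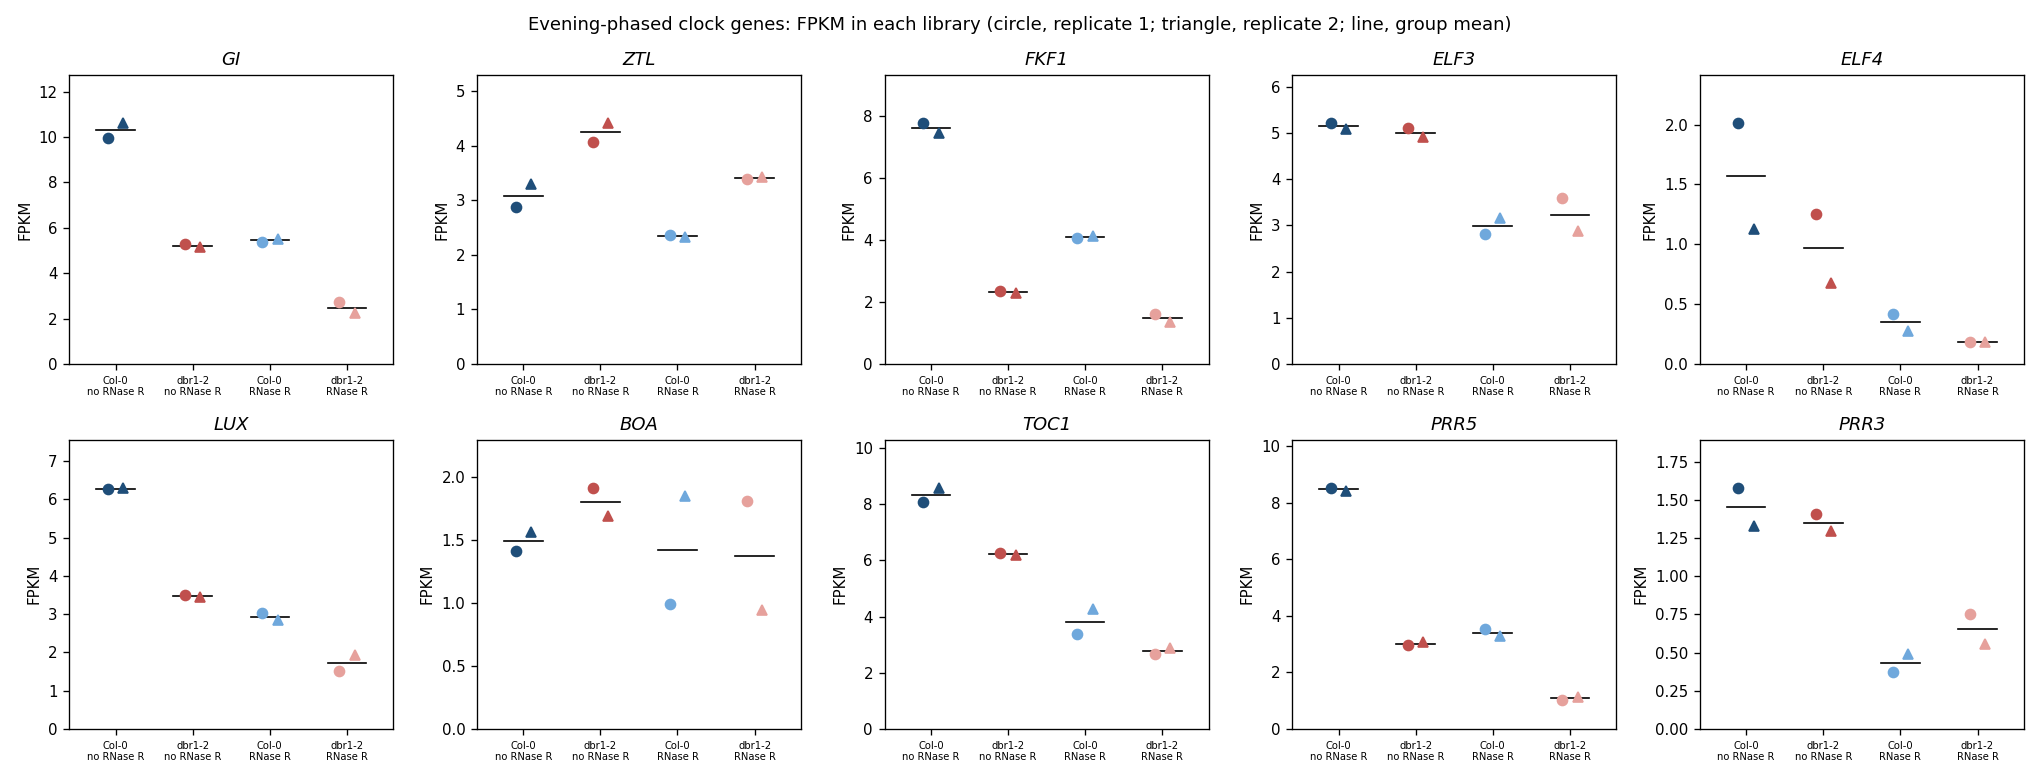
FPKM of the 10 genes in each of the 8 libraries, one panel per gene with a vertical axis from 0; circles are replicate 1, triangles replicate 2 and lines group means. Without RNase R, GI, FKF1, LUX, TOC1 and PRR5 lie lower in both dbr1-2 libraries than in both of Col-0, and ZTL and BOA lie higher, BOA without passing the test.

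The groups did not overlap in 5 of the 10 genes with dbr1-2 lower and in 2 with dbr1-2 higher. Over all loci tested, 17.1% were separated downward and 56.1% upward. The libraries without RNase R carry tags of one year for replicate 1 and of the next for replicate 2 in both genotypes, so the difference can be taken within each tag year. For FKF1 it was −1.39 and −1.36 on the log2(FPKM + 1) scale, for PRR5 −1.26 and −1.21, for GI −0.80 and −0.92, and for LUX −0.69 and −0.72. TOC1 gave −0.32 and −0.42, and ZTL gave 0.39 and 0.33, so each of these kept its direction in both years.

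The order of the levels changed with genotype. In Col-0 without RNase R the mean FPKM ran from GI (10.3 ± 0.47, SD, n = 2) over PRR5 (8.46 ± 0.083), TOC1 (8.33 ± 0.35), FKF1 (7.62 ± 0.24), LUX (6.28 ± 0.030), ELF3 (5.15 ± 0.094) and ZTL (3.08 ± 0.30) to ELF4 (1.57 ± 0.63), BOA (1.49 ± 0.11) and PRR3 (1.46 ± 0.18). PRR5 and TOC1 overlapped, as did the last 3. In dbr1-2 the order was TOC1 (6.22 ± 0.061), GI (5.22 ± 0.091), ELF3 (5.0 ± 0.13), ZTL (4.24 ± 0.25), LUX (3.47 ± 0.052), PRR5 (3.02 ± 0.064), FKF1 (2.32 ± 0.052), BOA (1.80 ± 0.16), PRR3 (1.35 ± 0.078) and ELF4 (0.966 ± 0.41). No 2 neighbours in that order overlapped. FKF1 thus stood above ZTL and ELF3 in the wild type and below both in the mutant.

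Ratios of FPKM between genes of 1 library do not change when the library is scaled by a constant factor, and they are given as a description. Quantile scaling is not such a factor and can change them. Without RNase R, FKF1 over ZTL was 2.71 and 2.26 in Col-0 against 0.579 and 0.517 in dbr1-2. LUX over BOA was 4.43 and 4.02 against 1.83 and 2.03. PRR5 over PRR3 was 5.39 and 6.31 against 2.11 and 2.36, and PRR5 over TOC1 was 1.05 and 0.979 against 0.474 and 0.495. In each of these pairs of relatives the ratio was lower in both mutant libraries, so the relatives changed unequally. With RNase R the same held for FKF1 over ZTL, PRR5 over PRR3 and PRR5 over TOC1, but not for LUX over BOA, whose groups overlapped (3.05 and 1.54 in Col-0, 0.837 and 2.04 in the mutant).

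With RNase R, 5 of the 10 genes fell in dbr1-2 relative to Col-0 (GI, FKF1, LUX, TOC1 and PRR5) and 1 rose (ZTL). Of all loci tested, 7.09% fell and 29.9% rose, and the median log2 fold change was −0.27 over the evening genes and 0.15 over all loci. The Col-0 libraries with RNase R carry tags of the later year and those of dbr1-2 tags of the earlier one, so no year holds both genotypes and a difference between them within a year cannot be had. In a fit with the tag year as a term, estimated from the other libraries, GI, FKF1, PRR5 and ZTL still passed, while LUX (limma adjusted p = 0.0709) and TOC1 (0.273) did not and ELF4 did (0.0235).

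GI was 5.39 and 5.51 FPKM in Col-0 and 2.74 and 2.24 in dbr1-2 with RNase R (log2 fold change −0.89, SE 0.10, limma adjusted p = 0.000353). FKF1 was 4.08 and 4.12 against 1.61 and 1.37 FPKM (−1.03, SE 0.093, limma adjusted p = 0.000129), and PRR5 was 3.54 and 3.27 against 1.03 and 1.12 (−1.08, SE 0.089, limma adjusted p = 8.45e-05). All 3 kept the separation of their groups after digestion. The PRR5 values of dbr1-2 correspond to about 18.7 and 20.8 fragments.

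LUX was 3.02 and 2.84 FPKM in Col-0 and 1.51 and 1.93 in dbr1-2 (log2 fold change −0.53, SE 0.10, limma adjusted p = 0.00493). TOC1 was 3.37 and 4.27 against 2.67 and 2.87 FPKM (−0.35, SE 0.11, limma adjusted p = 0.0407), close to the threshold. ZTL was 2.37 and 2.34 against 3.39 and 3.43 FPKM (0.40, SE 0.096, limma adjusted p = 0.0138). LUX passed in 11 of its 15 alternatives, TOC1 in 8 of 16 and ZTL in 10 of 15. TOC1 did not pass without Col-0 replicate 2 (limma adjusted p = 0.152), dbr1-2 replicate 1 (0.107) or dbr1-2 replicate 2 (0.0531).

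The remaining genes did not pass with RNase R. ELF3 was 2.81 and 3.16 FPKM in Col-0 and 3.58 and 2.87 in dbr1-2, with overlapping groups (log2 fold change 0.08, 95% interval −0.17 to 0.34). BOA was 0.991 and 1.85 against 1.81 and 0.947 FPKM, a spread within each group as wide as any difference. PRR3 was 0.375 and 0.490 against 0.752 and 0.557 FPKM, higher in both mutant libraries but resting on few fragments, and not past the test (0.21, SE 0.11, limma adjusted p = 0.169). ELF4 was 0.419 and 0.275 against 0.187 and 0.181 FPKM. At its exon length these ELF4 values correspond to about 1.99 and 0.995 fragments in Col-0 and 0.965 and 0.952 in dbr1-2, all under a floor of 3, so no fold is given.

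**Figure D3:**
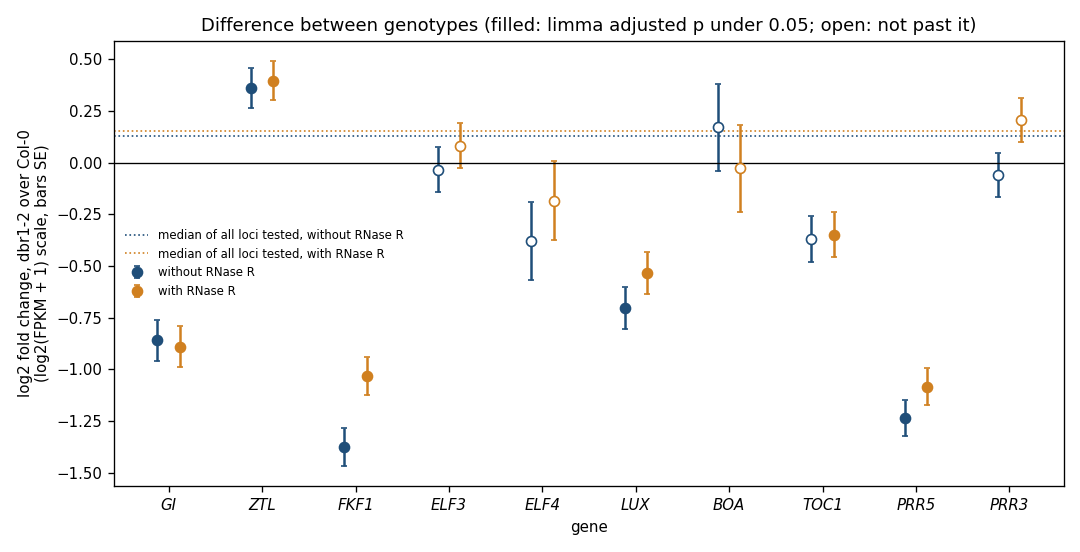
Log2 fold change of dbr1-2 over Col-0 for each gene without and with RNase R, on the log2(FPKM + 1) scale, with bars of 1 SE; filled points passed a limma adjusted p of 0.05 and dotted lines are the medians of all loci (0.13 and 0.15). GI, FKF1, LUX and PRR5 are filled below 0 in both conditions, ZTL is filled above 0 in both, and TOC1 is filled only with RNase R.

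The difference between genotypes did not change detectably with RNase R. In the interaction of genotype and RNase R, 0 of the 10 genes passed in either direction with limma, against 10.8% of loci higher and 2.99% lower. At an unadjusted p under 0.05 there was 1 gene, FKF1, whose fall was smaller with RNase R (0.34, SE 0.13, limma adjusted p = 0.134). For GI the interaction was −0.03, with a 95% interval from −0.36 to 0.30, and for TOC1 it was 0.02 (−0.34 to 0.38). On the TPM scale FKF1 and PRR5 passed with a positive interaction.

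RNase R against no RNase R asks which RNAs survive digestion. In FPKM, 9 of the 10 genes (all but BOA) fell with RNase R in Col-0 and the same number in dbr1-2, where 71.0% and 69.3% of all loci fell. No evening gene rose by limma, at an adjusted or an unadjusted p under 0.05, against 8.27% and 15.0% of loci. Since most of the table fell, with a median log2 fold change of −0.66 in Col-0 and −0.69 in dbr1-2, the count is not particular to these genes. The call of ELF4 rests on the 0.952 to 1.99 fragments given above. With libraries scaled by median ratios the direction of GI, FKF1, ELF3 and ZTL turned in Col-0 and that of FKF1, ELF3 and ZTL in dbr1-2, and quantile scaling turned ELF3 and ZTL in Col-0 and FKF1, PRR3 and ZTL in dbr1-2. BOA, which passed in neither genotype in the main fit, turned in both of them, to 0.52 (wild type) and 0.30 (mutant) by median ratios and to 0.62 and 0.33 by quantiles. Other alternatives went the opposite way, and the lowest value of BOA was −2.455 in Col-0 and −2.74 in dbr1-2. With TPM the median over all loci was −2.67 and −2.69. The falls with RNase R therefore describe shares of a library and not amounts of RNA.

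Relative to the median of all loci, the genes spread in both directions. PRR5 kept 0.402 of its FPKM in Col-0 and 0.356 in dbr1-2 (log2 fold changes relative to all loci −0.45 and −0.26). The 2 measures thus order the genotypes differently, and the log2(FPKM + 1) scale compresses changes at low levels. TOC1 kept 0.459 and 0.445, LUX kept 0.467 and 0.496, and GI kept 0.530 and 0.477. ZTL kept 0.763 and 0.804 of its FPKM and lay 0.38 and 0.44 above the median of all loci on the log2 scale. ELF3 kept 0.579 and 0.645, FKF1 0.538 and 0.643, and PRR3 0.297 and 0.484. BOA kept 0.953 and 0.764 without passing the test in either genotype (limma adjusted p = 0.792 and 0.274). Within 1 tag year, with 1 library without RNase R, the log2 difference of GI was −0.85 in Col-0 (the later year) and −0.85 in dbr1-2 (the earlier year), and that of PRR5 was −1.10 and −0.94.

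The morning side of the clock was compared through a list of 11 genes, of which 10 were tested. Without RNase R, 8 of the 10 rose in dbr1-2 and 1 fell, with a median log2 fold change of 1.54. LHY was 0.457 and 0.492 FPKM in Col-0 and 6.60 and 6.34 in dbr1-2 (log2 fold change 2.34, SE 0.090, limma adjusted p = 3.6e-05). RVE8 was 0.364 and 0.284 against 5.54 and 4.83 FPKM (2.22, SE 0.13, limma adjusted p = 0.000136), and LNK2, a coactivator of RVE8, was 1.59 and 1.35 against 5.29 and 5.01. The one that fell was PRR7, named for that after its values were seen, from 3.84 and 3.47 FPKM to 1.76 and 1.80; with any 1 of the 4 libraries left out it did not pass. RVE2 has 2 rows in the table, and the one with the higher mean without RNase R was used.

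With RNase R, 7 of the 10 morning genes rose and none passed downward, with a median of 0.96. LHY was then 0.472 and 0.400 FPKM in Col-0 and 4.75 and 4.85 in dbr1-2, and RVE4, a relative of RVE8, was 3.62 and 3.26 against 11.9 and 11.4. The count of rising genes was 4 with organelle and ribosomal RNA loci removed, and 6 to 8 with 1 library left out. The count of falling genes was 1 with median-ratio or quantile scaling and 2 without dbr1-2 replicate 1. These alternatives, and those of the lists that follow, were chosen after seeing the data. The list was chosen with its values known, and its count describes these libraries.

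Set against each other within a library without RNase R, GI and LHY changed order with genotype, as did PRR5 and RVE8, while TOC1 stayed above CCA1. Without RNase R, GI over LHY was 21.8 and 21.6 in Col-0 against 0.801 and 0.813 in dbr1-2, and with it 11.4 and 13.8 against 0.577 and 0.462. PRR5 over RVE8 was 23.4 and 29.6 against 0.537 and 0.634 without RNase R. TOC1 over CCA1, a pair of mutual repressors chosen for that role, was 21.3 and 16.7 against 1.5 and 1.54. In Col-0 each of these evening genes was the more abundant of its pair by FPKM, and in dbr1-2 GI and PRR5 were the less abundant. Summed over the lists, the evening genes gave 53.7 and 53.8 FPKM in Col-0 and 33.1 to 34.1 in dbr1-2, and the morning genes 14.5 to 15.5 and 45.2 to 47.8.

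**Figure D4:**
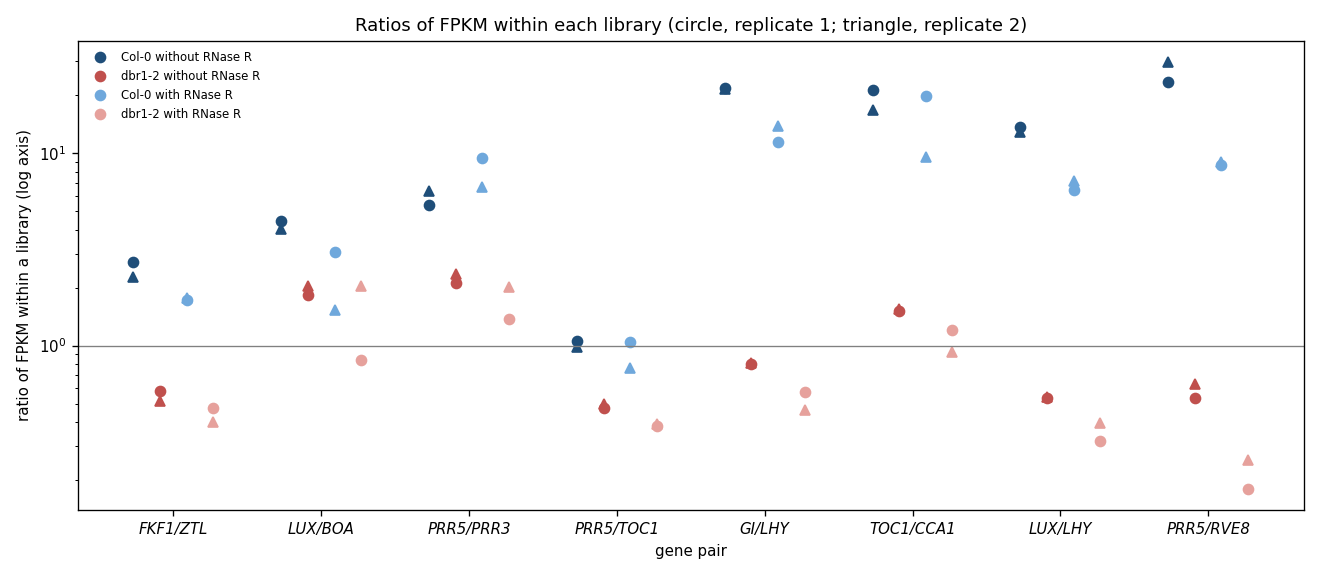
Ratio of FPKM between 2 genes of the same library, on a log axis, for 4 pairs of relatives and 4 pairs of an evening over a morning gene; colours are the 4 groups, circles replicate 1 and triangles replicate 2. The ratios of GI over LHY fall from 21.8 and 21.6 in Col-0 to 0.801 and 0.813 in dbr1-2 without RNase R, across the grey line at 1.

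Genes around the clock were read from further lists, whose counts stand against 14.2% of all loci higher and 3.32% lower without RNase R, and 29.9% and 7.09% with it. Of 10 tested regulators of the clock, 3 fell and none passed upward without RNase R. These were COR28, from 2.14 and 1.97 FPKM to 1.05 and 0.910, COR27, from 7.83 and 6.98 to 3.20 and 3.13, and CHE, from 3.82 and 4.73 to 2.49 and 2.85. COR27 and COR28 are cold-regulated repressors of PRR5 and TOC1, and CHE binds the CCA1 promoter. With RNase R 3 passed downward, COR28, CHE and PRMT5. With 1 library left out the count of falling genes was 0 or 1 without RNase R and 2 to 6 with it. None of the 3 tested relatives of ELF4 passed in either comparison of genotypes (log2 fold changes from −0.38 to 0.36 without RNase R), and the ELF3 relative EEC was below the filter. LKP2, the third member of the ZTL family, was 1.18 and 1.34 FPKM in Col-0 and 1.47 and 1.48 in dbr1-2 and did not pass.

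Of 10 tested genes of photoperiodic flowering, several of which act downstream of GI and FKF1, 8 rose and 1 fell without RNase R (median log2 fold change 0.88). COL1 was 0.252 and 0.391 FPKM in Col-0 and 3.86 and 3.66 in dbr1-2, and COL2 was 0.429 and 0.588 against 3.53 and 3.54. CDF1, a repressor that FKF1 and GI target, was 0.456 and 0.615 against 2.18 and 2.01 FPKM (1.01 on the log2 scale, SE 0.092, limma adjusted p = 0.000667). The one that fell was COL9, from 6.18 and 6.16 to 4.62 and 4.35 FPKM, which did not pass with any 1 of the 4 libraries left out. With RNase R it was 10.3 and 11.9 against 4.40 and 4.89 FPKM, a log2 fold change of −1.10 with an SE of 0.10 (limma adjusted p = 0.000136). CO and FT, the flowering switch itself, were below the filter, at most 0.955 and 1.13 FPKM. With RNase R, 6 rose and 1 fell, but none rose on the TPM scale or with organelle and ribosomal RNA loci removed.

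Of 7 tested light receptors, PHYB and CRY1 rose without RNase R, PHYB from 4.22 and 4.18 FPKM to 7.37 and 7.34 and CRY1 from 5.75 and 6.60 to 9.29 and 8.96. With RNase R only PHYB passed, and with 1 library left out at most 1 of the 7 passed in either comparison. The share that rose was 2 of 7 against 14.2% of all loci without RNase R, and 1 of 7 against 29.9% with it, where quantile scaling gave 0 higher and 4 lower. Of 9 tested clock outputs, 3 rose and 4 fell without RNase R, and 3 rose and 3 fell with it. With 1 library left out 2 rose and 1 or 2 fell without RNase R, and 1 to 3 rose with it. Of all loci 29.9% rose with RNase R, so that 3 of 9 is near the background, and with median-ratio or quantile scaling 1 output rose and 5 fell. BBX25, a B-box protein, was 1.10 and 0.899 FPKM in Col-0 and 5.89 and 5.21 in dbr1-2 without RNase R, and BBX18 was 0.879 and 1.01 against 3.26 and 3.03. GRP7, an RNA-binding protein under the clock, was 570.1 and 582 against 178 and 154 FPKM with RNase R (log2 fold change −1.79, SE 0.14, limma adjusted p = 7.68e-05).

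**Figure D5:**
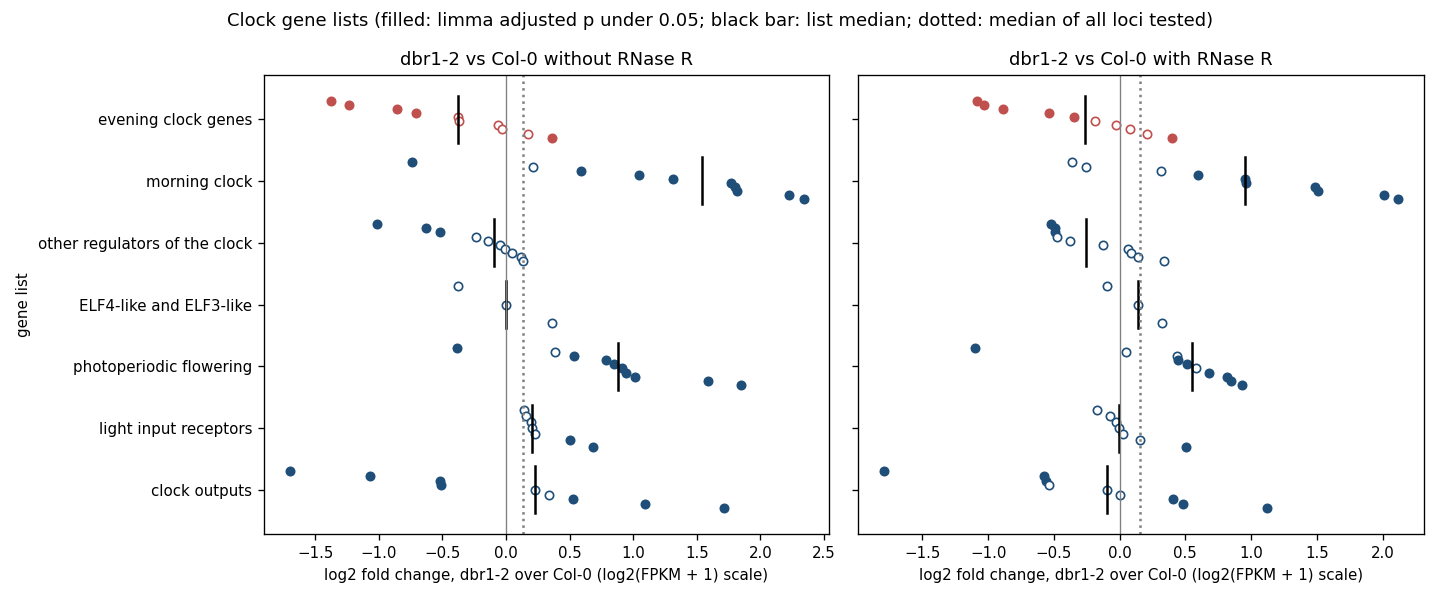
Log2 fold change of dbr1-2 over Col-0 for each tested gene of 7 clock lists without RNase R (left) and with it (right), on the log2(FPKM + 1) scale; filled points passed a limma adjusted p of 0.05, black bars are list medians and the dotted line is the median of all loci. The median of the evening genes lies at −0.37 and −0.27 and that of the morning genes at 1.54 and 0.96.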

How the data were processed

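Ribosomal RNA-depleted RNA of 8 libraries was measured, and the authors deposited the values as FPKM for each locus in each library. The TAIR10 build, Cuffnorm 2.2.1, Cufflinks 2.2.1 and TopHat2 2.0.13 are named per the submitters' processing notes, without order or settings. Groups come from the sample titles. The sequencing tag of dbr1-2 replicate 1 with RNase R lacks the mention of mRNA removal that the other tags carry. This library is part of every comparison of genotypes with RNase R, and the effect of the differing tag was not tested.

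Loci reaching 1 FPKM in 2 or more libraries were tested on log2(FPKM + 1) with limma 3.58.1 in R 4.3.3 (eBayes with trend), in 1 fit of 4 group means with 4 residual degrees of freedom, two-sided, with Benjamini-Hochberg adjustment over all loci. Tested on simulated data, the fit gave the right sign to the changes it recovered. How often it missed changes or made false calls there is not given here. FPKM of 1 fragment was read from the steps between values of up to 5 fragments, taking the transcript length less 199 bases; within a tolerance of 0.05, from 89.4% to 99.6% of these low values were whole. Intervals of log2 fold changes come from the limma fit and measure the spread between libraries. Floors cover counting error only. Motifs were counted with Python 3.11.15 on the TAIR10.1 reference.

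The genes, lists, tests and motifs were chosen with earlier results of these data known. Named are all 10 evening genes, DBR1, overlapping genes and, per list and comparison, up to 3 genes past the threshold with the smallest p; further names follow from a pair or a count of 1. Alternatives tried were smaller pseudocounts (0.1, 0.01), dropping the filter, a filter on a mean of 5 FPKM, median-ratio and quantile scaling, rescaling to TPM, leaving out organelle and ribosomal RNA loci, robust eBayes, only the 4 libraries compared, tag year, replicate block and each library left out. The window before the more upstream start and the alternatives on the lists other than the evening genes were chosen after seeing the data. Every list gene past the interaction test is also named in the closing section.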

Additional observations from a re-analysis of the deposited data

Results flagged for a closer look

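None of the evening genes met a criterion for a closer look, and groups of 2 are too small for a test of outlying libraries. The genotype difference of 7 of the 49 tested genes on 6 neighbouring lists changed with RNase R by the limma interaction test, all 7 with a negative interaction, against 2.99% of all loci with a negative and 10.8% with a positive one. COL1 (interaction −1.17 on the log2(FPKM + 1) scale, limma adjusted p = 0.00173), CDF2 (−0.87, 0.00901) and COL2 (−0.74, 0.0131) act in photoperiodic flowering, and BBX18 (−1.09, 0.0115) is a clock output. All 4 rose in dbr1-2 without RNase R. The others were CDF1 (−0.57, 0.0261) and COL9 (−0.71, 0.0152) of photoperiodic flowering and RVE2 (−1.21, 0.0123), a morning gene with 2 rows in the table. CDF1 and RVE2 were higher in dbr1-2 without RNase R, while COL9 was lower there and further apart with RNase R. With RNase R, COL1 was 0.177 and 0.232 FPKM in Col-0 and 0.866 and 1.00 in dbr1-2, COL2 was 0.556 and 0.623 against 1.74 and 1.98, CDF2 was 0.260 and 0.466 against 0.489 and 0.326, and BBX18 was 0.236 and 0.617 against 0.320 and 0.520. At these low levels the pseudocount matters: with a pseudocount of 0.01 COL9 was the only one of the 7 to pass, with limma adjusted p of 0.0987 for COL1, 0.121 for CDF2, 0.0651 for COL2 and 0.193 for BBX18. Of 18 alternatives, COL1 lost the call in 1, CDF2 in 4, BBX18 and RVE2 in 5, COL2 in 7 and CDF1 in 10, where the interaction of CDF1 also turned to 0.27 with a pseudocount of 0.01. COL9 lost it in 7 of 19. The cause was not tested.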

How the results depend on the processing

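GI, FKF1, LUX and PRR5 stayed lower in dbr1-2 without RNase R in every alternative that tested them. At a mean of at least 5 FPKM only GI and TOC1 were tested; GI alone was then lower without RNase R (1 gene), and both (2 genes) with RNase R and in each comparison of RNase R against none. The count of higher genes without RNase R went from 1 (ZTL) to 0 with pseudocounts of 0.1 and 0.01, a mean of at least 5 FPKM, median-ratio and quantile scaling, TPM, leaving out organelle and ribosomal RNA loci, tag year, and each library left out (0 to 0). With RNase R it went to 0 with the mean of 5 FPKM, both scalings, TPM, no organelle or ribosomal RNA loci and only the 4 libraries compared, and the last 3 of these left 3 genes lower (GI, FKF1, PRR5). TPM gave an interaction for 2 genes.

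RNase R against none depended most on scaling, and the scalings pulled in opposite directions. Rescaling to TPM deepened the all-locus median to −2.67 (wild type) and −2.69 (mutant), and leaving out organelle and ribosomal RNA loci to −3.16 and −3.26. The lowest log2 fold changes of the evening genes over all alternatives ran from −4.05 (PRR5) to −2.455 (BOA) for the wild type. For the mutant they ran from −3.91 (TOC1) to −2.50 (ELF4). Under median ratios 3 genes fell and 1 rose in Col-0, and 1 fell and 1 rose in dbr1-2; the log2 fold change turned to 0.063 (GI), 0.079 (FKF1), 0.16 (ELF3) and 0.44 (ZTL) in Col-0 and to 0.20 (FKF1), 0.25 (ELF3) and 0.50 (ZTL) in dbr1-2. Under quantile scaling 1 fell and 2 rose in Col-0 and 3 fell in dbr1-2, with 0.024 (ELF3), 0.62 (BOA) and 0.39 (ZTL) in Col-0, 0.18 (FKF1), 0.12 (PRR3) and 0.25 (ZTL) in dbr1-2, and −0.27 for ELF3 between genotypes with RNase R. The causes were not tested.

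The replicate block left the counts at 4 lower and 1 higher without RNase R and 5 and 1 with it, and changed no count of evening genes; over all loci it gave 2341 calls against 2518 without RNase R. Same-numbered libraries deviated together between genotypes without RNase R (r = 0.30 over loci), where the number is also the tag year and the main fit held no such term. Elsewhere they did not (−0.05 to 0.08), so there the numbers do not pair the groups. Calls without RNase R over all loci ranged from 819 to 5847. Depth limits ELF4 and PRR3 with RNase R.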

Other observations

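Neighbours of 2 evening genes passed the limma interaction test of genotype and RNase R. Of all loci tested, 2.99% passed with a negative interaction and 10.8% with a positive one. Few neighbours were tested, so the count is not read as a trait of these surroundings. The others tested, PFL, AT1G22790, MAP70-1, SRR1, AT5G24460 and AT5G57370, did not pass it. Between genotypes with RNase R, where 29.9% of all loci rose, SRR1 near BOA rose (log2 fold change 0.31, limma adjusted p = 0.0438). AT5G24460 near PRR5 rose there too (0.61, limma adjusted p = 0.00593). AT3G46630, which lies 481 bases from LUX on the opposite strand, was 9.19 and 11.8 FPKM in Col-0 and 3.45 and 2.30 in dbr1-2 with RNase R, and 3.75 and 4.10 against 2.93 and 2.68 without it. Its genotype difference with RNase R passed (log2 fold change −1.58, SE 0.17, limma adjusted p = 0.000257), as did its interaction (−1.20, limma adjusted p = 0.0142), while LUX had an interaction of 0.17 (limma adjusted p = 0.501). AT2G40085, which lies 1363 bases from ELF4 on the same strand, was 2.35 and 2.34 FPKM in Col-0 and 6.07 and 6.33 in dbr1-2 with RNase R, against 2.05 and 2.12 and 1.95 and 1.95 without it (interaction 1.17, limma adjusted p = 0.00111). The neighbours given with values were named after those values were seen.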
